A study of Mus musculus with 20 samples.

Results

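A set of 9 genes was followed as the hemidesmosome and anchoring complex of the corneal epithelium: *Col17a1*, *Itga6*, *Itgb4*, *Plec*, *Dst*, *Lama3*, *Lamb3*, *Cd151* and *Col7a1*. They were picked by name, though with earlier results of these data known, and all 9 were found among the 24552 genes of the table. The 20 libraries were made from wild-type, untreated (naïve) female C57BL/6J (B6) mice, an inbred strain, and each holds the epithelium debrided from both corneas of 1 animal. There were 5 libraries at 2 to 3 months (the young group), 5 at 12 to 13 months, 5 at 18 to 19 months and 5 at 24 to 25 months, called the 12-month, 18-month and 24-month groups. The animals had more than one origin, a vendor, the laboratory's own ageing colony and a national ageing institute, and the labels do not tie an animal to an origin, so source and age cannot be told apart. Reads were primed from the poly(A) tail, so a count stands for transcript 3′ ends and not for a whole transcript.

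Hemidesmosomes are the rivets that hold basal epithelial cells to their basement membrane. On the cell side, the plakins plectin and dystonin (BPAG1) tie keratin filaments to the membrane, where the integrin α6β4, the transmembrane collagen XVII and the tetraspanin CD151 span it. On the matrix side, the integrin binds laminin-332, a trimer whose chains include those made by *Lama3* and *Lamb3*, and anchoring fibrils of collagen VII tie the laminin to the stroma. In the cornea these structures are known for holding the sheet in place during wear and for being taken apart and rebuilt when a debrided surface heals.

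Sequence shows which transcripts 1 row of the table can hold. For *Dst*, the RefSeq promoter table (GRCm38.p6, the build of the files) lists 2 starts on the forward strand. One lies at chr1:34011345-34011594 (250 bases before a start of long forms), the other at chr1:34160010-34160259. The starts do not separate the 3′ ends, since a long form also begins at 33908225 and 1 transcript from 34160330 runs to 34308404. Another GENCODE transcript that begins at 34160330 ends at 34183904, whereas long forms run to 34308661, so the epithelial short form (BPAG1e) has a 3′ end of its own. Other coding transcripts end elsewhere, for example at 34137135 and 34193263. The one *Dst* value does not separate these ends, and which of them held reads was not examined. The 2 *Dst* windows are printed to show how unlike these starts are, and those of *Col17a1* (reverse strand, chr19:47692043-47692292) and *Col7a1* (forward strand, chr9:108953336-108953585) because these collagens stand on either side of the complex. Capitals mark matches, on either strand, to the TATA box TATAAA and the GC box GGGCGG, which do not overlap each other here.
Dst, long forms: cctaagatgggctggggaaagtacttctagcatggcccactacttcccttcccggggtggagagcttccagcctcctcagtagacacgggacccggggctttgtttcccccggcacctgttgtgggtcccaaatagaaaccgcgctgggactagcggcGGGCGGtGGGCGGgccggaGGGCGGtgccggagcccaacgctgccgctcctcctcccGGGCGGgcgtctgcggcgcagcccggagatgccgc
Dst, second start: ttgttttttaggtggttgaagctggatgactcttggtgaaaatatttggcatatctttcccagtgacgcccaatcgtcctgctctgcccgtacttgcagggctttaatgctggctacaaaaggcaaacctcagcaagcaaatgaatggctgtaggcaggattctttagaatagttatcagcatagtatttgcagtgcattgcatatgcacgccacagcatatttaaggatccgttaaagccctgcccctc
Col17a1: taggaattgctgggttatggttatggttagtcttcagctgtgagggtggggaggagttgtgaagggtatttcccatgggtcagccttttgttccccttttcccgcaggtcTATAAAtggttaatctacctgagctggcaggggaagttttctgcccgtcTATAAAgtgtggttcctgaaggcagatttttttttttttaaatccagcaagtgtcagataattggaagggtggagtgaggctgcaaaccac
Col7a1: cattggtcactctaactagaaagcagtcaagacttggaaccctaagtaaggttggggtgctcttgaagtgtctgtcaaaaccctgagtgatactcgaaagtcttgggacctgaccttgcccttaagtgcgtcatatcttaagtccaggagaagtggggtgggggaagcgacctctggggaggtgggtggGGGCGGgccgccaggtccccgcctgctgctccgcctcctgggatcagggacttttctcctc
The first *Dst* window, printed as long forms, held 4 GC boxes and was 68.8% G and C, against 0 and 45.2% for the second start. *Col17a1* held 2 TATA boxes, 140 and 91 bases before the start, and *Col7a1* held 1 GC box at 61 bases. Of the 32851 promoters in the table, 12.4% held TATAAA and 32.7% held GGGCGG within the same length. The AP-1 motif TGANTCA, also searched on both strands, was in 6.75% of all promoters and in 0 of the 8 member windows, which says only that these letters are not in them. Windows were found for 5 members (*Lamb3* and *Cd151* as well), and not for *Itga6*, *Itgb4*, *Plec* and *Lama3*.

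Between 6699383 and 10762360 reads per library lay on genes, and the 9 genes together took between 0.272% and 0.377% of them. *Krt12*, the keratin that defines corneal epithelium, was at 203580 to 285895 normalized counts in every library. The stromal keratocyte list was present as well and fell with age. Its 12 genes summed to between 2304 and 5855 normalized counts in young libraries and between 655 and 1411 at 24 months, and none was at 0 throughout. At 24 months 7 of 12 were called lower (0.78% of all tested genes were called in either direction). A gene was called differentially expressed (DEG) when limma gave it an adjusted p-value no higher than 0.05 together with a 1.2-fold or greater change, and 11288 genes whose normalized counts averaged 10 or more were tested. Of the conjunctival list, 1 of 5 tested genes (*Krt4*) was called lower at 24 months, again beside 0.78% of all tested genes. The sums of this list were 28949 to 50548 in young and 25097 to 30234 in 24-month libraries. In whole scrapings, fewer cells of a type and less RNA per cell cannot be told apart. The basal layer list (*Krt5*, *Krt14*, *Krt15*, *Trp63*, *Gja1* and *Itgb1*), which marks the cells that build hemidesmosomes, had 0 of 6 genes called at 24 months (0.78% of all tested genes), with 4 higher and 2 lower. *Gja1*, higher by 0.51 on the log2 scale at 24 months, was the 1 gene with an unadjusted p-value below 0.05, a level that 9.97% of all tested genes passed. At 12 months 0 of 6 were called as well (0.532% of all tested genes). There *Krt14* was the 1 gene below 0.05, a level that 9.56% of all tested genes passed. It was lower by 0.54 on the log2 scale (interval −0.89 to −0.18, unadjusted p = 0.0042, adjusted p = 0.228, limma). The sums, mostly *Krt5* and *Krt15*, were 119809 to 167638 in young and 131116 to 179149 in 24-month libraries.

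None of the 9 genes was a DEG at any age. Against young, limma called 0 of 9 at 12 months (0.532% of all tested genes were called), 0 of 9 at 18 months (0.673%) and 0 of 9 at 24 months (0.78%). With voom on the recovered reads the count was 0 in each as well. At an unadjusted p-value below 0.05 there was 1 gene at 12 months (*Itga6*), 0 at 18 months and 1 at 24 months (*Dst*), whereas 9.56%, 7.18% and 9.97% of all tested genes passed that level. Of the 9 fold changes, 6, 8 and 7 were below 0 at the 3 ages, with medians of −0.02, −0.14 and −0.19 on the log2 scale, and the median of all tested genes lay at −0.010, −0.0011 and 0.0052. All 3 comparisons share the same 5 young libraries. The median absolute log2 fold change at 24 months was 0.19 for the members and 0.20 for all tested genes. The tested genes reach down to an average of 10 normalized counts, with more counting error than the members, so these medians are not of like genes.

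**Figure D1:**
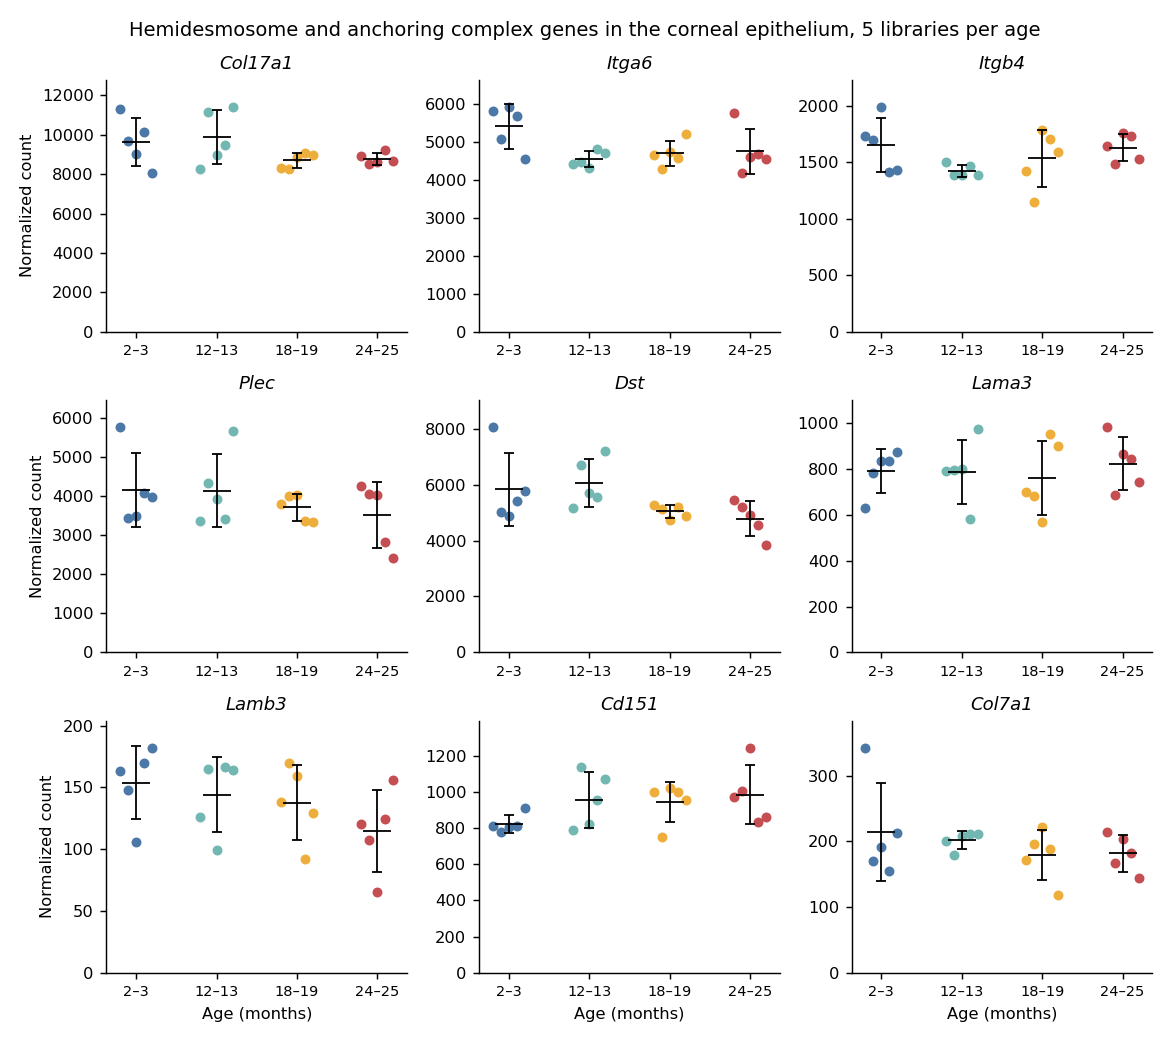
Normalized counts (vertical axis, from 0) of the 9 genes against age in months. Each point is 1 library, and the bar with whiskers is the mean with the SD over 5 libraries. The ages overlap in every panel, and young replicate 1 stands above the other young libraries for *Plec*, *Dst* and *Col7a1*.

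The intervals say how much change could have been missed. Over the 27 tests of a member against young, the 95% confidence intervals reached from 0.522-fold (*Lamb3* at 24 months) to 1.42-fold (*Cd151* at 24 months). Of these, 23 lay wholly within 1.5-fold in either direction, and 25 of the estimates were below 1.2-fold. The libraries of the aged and young groups overlapped for 9 of 9 genes at each age. Over all tested genes, 1.98%, 2.05% and 2.81% had groups that did not overlap at 12, 18 and 24 months. The p-values measure the spread between animals, scrapings and library preparations together, which are not separated.

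**Figure D2:**
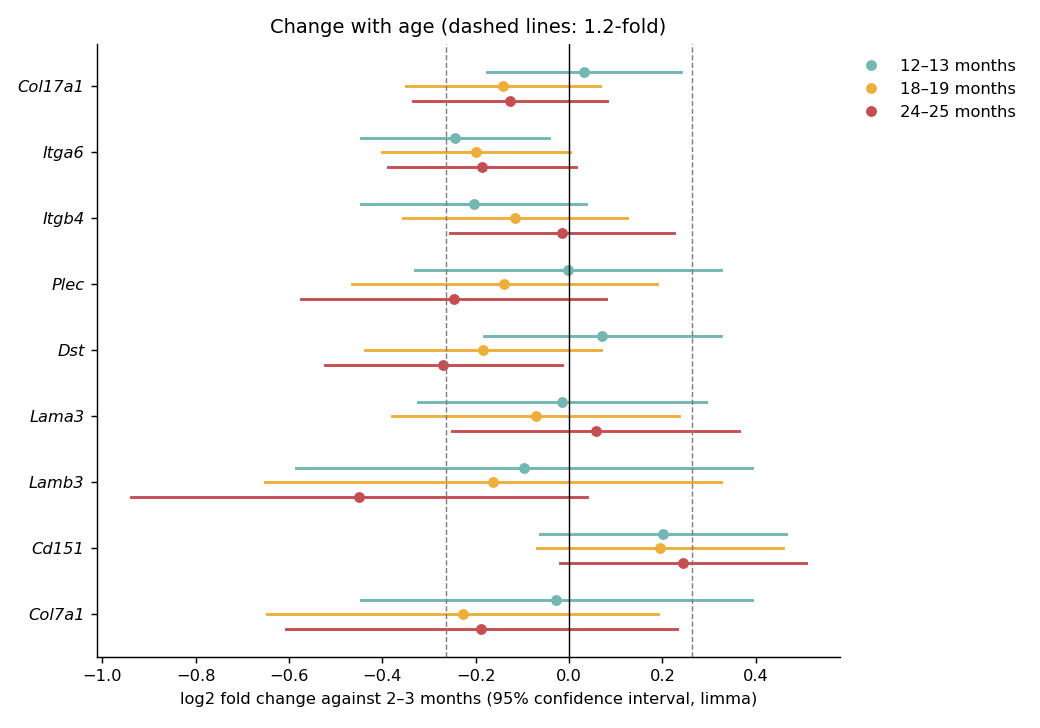
The log2 fold change against the young group (horizontal axis) for each gene (vertical axis) at 12, 18 and 24 months, from limma, with 95% confidence intervals as bars and 1.2-fold changes as dashed lines. *Lamb3* at 24 months lay farthest from 0, at −0.45, with an interval that includes 0.

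The receptor pair came first by role. *Itga6* makes the α6 chain of the integrin and is at chr2:71786886-71858427. Its young libraries stood at 5835, 5076, 5938, 5682 and 4560 normalized counts, and its 12-month libraries at 4424, 4489, 4319, 4822 and 4723. The 5 libraries at 12 months lay below the young median and 3 of them below every young library, but young replicate 5 was within their range. The log2 fold change was −0.24 at 12 months (95% interval −0.45 to −0.04, unadjusted p = 0.0194, adjusted p = 0.388, limma). The later ages gave 4707 ± 335 normalized counts at 18 months and 4765 ± 589 at 24 months (SD, n = 5), against 5418 ± 585 in the young group. The changes there were −0.20 and −0.19 on the log2 scale. Among the 24-month libraries only replicate 1, at 5765, reached the upper young values, and the other 4 were between 4202 and 4683.

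*Itgb4*, at chr11:115974725-116008412, makes the long-tailed β4 chain that binds plectin. Young libraries had 1737, 1703, 1994, 1419 and 1437 normalized counts, and 24-month libraries 1642, 1489, 1762, 1733 and 1530. These 2 groups lay in the same range, with a log2 fold change of −0.01 (interval −0.26 to 0.23). At 12 months the level was 1428 ± 53.0 (SD, n = 5), with 3 of 5 libraries below every young one, and the change was −0.20 (adjusted p = 0.62, limma). The 12-month libraries were also the closest together. At 18 months the values ran from 1154 to 1792.

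*Cd151*, the tetraspanin that holds laminin-binding integrins together (chr7:141467362-141471481), was the one gene above young at all 3 ages by its estimates. The young libraries stood at 810, 779, 807, 811 and 910 normalized counts. Those at 24 months stood at 973, 1008, 1246, 834 and 860, so that 3 of 5 were above every young library. The log2 fold changes were 0.20, 0.19 and 0.24 at 12, 18 and 24 months, and the adjusted p-values 0.668, 0.853 and 0.549 (limma). Without 24-month replicate 3 the change at 24 months was 0.16. The young group was narrow, with an SD of 50.1 against 153 at 12 months, 111 at 18 months and 164 at 24 months. At 18 months, replicate 2 (753) was below all young libraries and the other 4 (958 to 1024) above them.

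*Col17a1*, the gene of the transmembrane collagen (chr19:47646341-47692042), had 11308, 9679, 9023, 10145 and 8067 normalized counts in the young libraries. At 24 months it had 8899, 8492, 8619, 9249 and 8644. The 24-month libraries lay below the young median in 5 of 5 cases but inside the young range. The log2 fold change was −0.13 (interval −0.33 to 0.08, adjusted p = 0.728, limma), and −0.067 without young replicate 1. The SD over 5 libraries was 1214 in the young, 1366 in the 12-month, 375 in the 18-month and 300.4 in the 24-month group.

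The plakins had the lowest estimates of the cell side at 24 months. *Dst* (chr1:33907888-34308662), the BPAG1 gene, stood at 8057, 5018, 4883, 5423 and 5760 normalized counts in young libraries. At 12 months it stood at 5169, 6698, 5686, 5571 and 7204. At 24 months it stood at 5439, 5186, 4905, 4568 and 3839. Here 2 of the 5 libraries at 24 months were below every young one, and young replicate 1 was far above the rest. The log2 fold change at 24 months was −0.27 against young (interval −0.52 to −0.02, unadjusted p = 0.0384, adjusted p = 0.459, limma), and −0.15 without young replicate 1. That replicate did not enter the estimate for 24 against 12 months, which was −0.34 (unadjusted p = 0.0104, adjusted p = 0.209, limma). It did enter the spread behind these p-values, which all 20 libraries share. Under the alternatives named below, the estimate ran from −0.40 to −0.26. At 18 months the libraries were close together, between 4739 and 5271.

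*Plec* (chr15:76170974-76231378), which makes plectin, had 5769, 3435, 3495, 4070 and 3969 normalized counts in young libraries and 4257, 4069, 4021, 2815 and 2421 at 24 months. At 24 months, 3 of 5 libraries were above the young median and 2 were below every young library. Its log2 fold change was −0.25 (interval −0.57 to 0.08, adjusted p = 0.643, limma), and −0.12 without young replicate 1. Reads of *Plec* and *Dst* were not assigned to single transcripts, of which GENCODE lists 21 and 14 coding for protein.

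On the matrix side the counts were lower and the spread wider. *Lamb3* (chr1:193294353-193343878), the β3 chain of laminin-332, rested on 69 to 200 reads per library. Its young libraries had 163, 148, 106, 170 and 182 normalized counts, and the 24-month libraries 120, 107, 65.3, 124 and 156. The 24-month libraries were below the young median in 5 of 5 cases, but 1 of them was below every young library. The estimated log2 fold change was −0.45 (interval −0.94 to 0.04, unadjusted p = 0.0694, adjusted p = 0.555, limma), and −0.26 without 24-month replicate 3. *Lama3*, the α3 chain, was at 792 ± 96.8 normalized counts in the young and 825 ± 115 in the 24-month group (SD, n = 5), with overlapping libraries. Its log2 fold change was 0.06 (interval −0.25 to 0.36).

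*Col7a1* (chr9:108953586-108984875) makes collagen VII, the body of the anchoring fibril. The young libraries had 343, 171, 191, 155 and 212 normalized counts, and those at 24 months 215, 168, 203, 182 and 144. Apart from young replicate 1 the 2 groups covered the same range. Between these groups the log2 fold change was −0.19 (interval −0.61 to 0.23, adjusted p = 0.812, limma) and −0.0038 without that library. At 12 months the 5 libraries lay between 179 and 212, and at 18 months between 118 and 222.

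Comparisons that take the ages together gave the same counts. All aged against young, 0 of 9 genes were called (1.01% of all tested genes), and 2 had an unadjusted p-value below 0.05, *Itga6* at −0.21 (unadjusted p = 0.0134, adjusted p = 0.351) and *Cd151* at 0.21 (0.0473 and 0.627, limma). A test for any difference among the 4 ages called 0 of 9 (0.904%), with 1 gene, *Dst*, at an unadjusted p = 0.0363 (adjusted p = 0.407). A linear trend with age also called 0 of 9 (0.718%). *Dst* had a slope of −0.14 log2 units per 10 months (interval −0.25 to −0.02, unadjusted p = 0.0216, adjusted p = 0.382). Between aged groups, 0 of 9 were called at 24 against 12 months (0.195%, with *Dst* the 1 gene below an unadjusted 0.05). It was likewise 0 of 9 at 18 against 12 months (0.00886%, *Dst* again, at −0.26 and adjusted p = 0.668) and at 24 against 18 months (0%, and 0 members below 0.05). In that last comparison 0 of 11288 genes were called, 599 had an unadjusted p-value below 0.05, and voom also called 0. Under voom the count of members was 0 in each of these comparisons. Of all tested genes, 7.89% had an unadjusted p-value below 0.05 for all aged against young, 11.4% for any difference and 9.98% for the trend. For the aged groups it was 14.7% at 24 against 12 months, 7.43% at 18 against 12 months and 5.31% at 24 against 18 months.

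Partner genes can be compared inside 1 library, where the size factor cancels. The log2 ratio of 2 genes is given for its change only, since 3′ capture differs between genes. *Itgb4* to *Itga6* was −1.71 ± 0.177 in young and −1.54 ± 0.167 in 24-month libraries (SD, n = 5), a difference of 0.17 (two-sided exact permutation p = 0.167). *Lamb3* to *Lama3* went from −2.37 ± 0.375 to −2.88 ± 0.544, a difference of −0.51 (exact permutation p = 0.119). The ranges overlapped in both, with 3 and 2 of the 5 libraries at 24 months outside the young range. *Col17a1* to *Itgb4*, which bind each other, differed by −0.11 (exact permutation p = 0.381), with 0 of 5 outside that range. *Dst* to *Plec* differed by −0.02 (exact permutation p = 0.802), yet 5 of 5 libraries at 24 months lay outside the young range of 0.41 to 0.55, 3 below it (0.29 to 0.35) and 2 above it (0.67 and 0.70). Its SD was 0.0531 in young and 0.195 in 24-month libraries, a difference in spread that was not tested. After adjustment over the 4 ratios the p-values of the exact permutation tests were 0.333, 0.333, 0.508 and 0.802, and no ratio passed the 0.05 level.

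**Figure D3:**
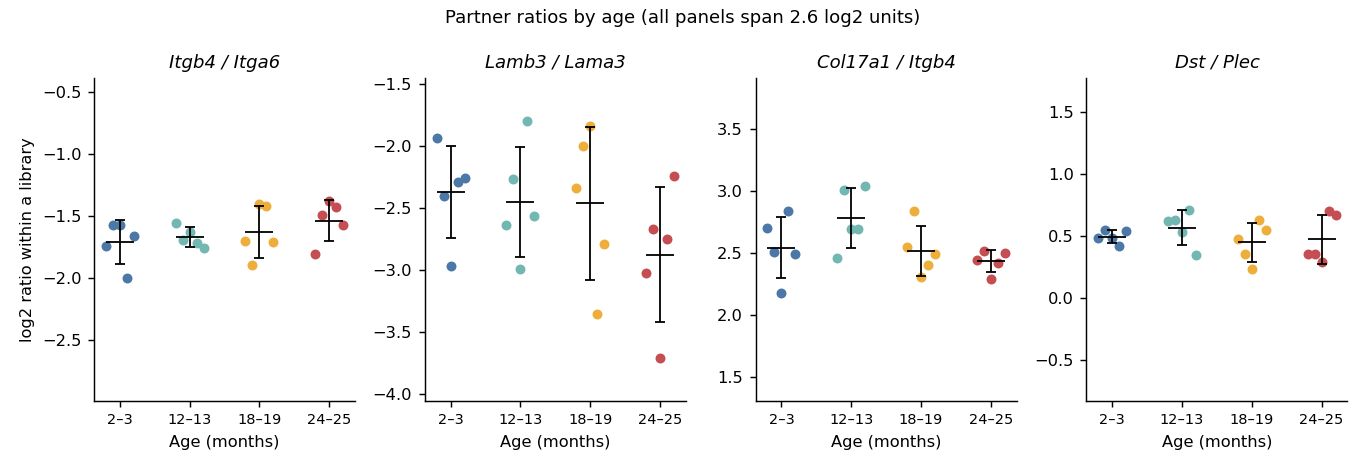
Log2 ratio of 2 partner genes within a library (vertical axis, pseudocount of 1) against age in months, 1 point per library, with mean and SD over 5 libraries. All panels span the same range, so the wide scatter of *Lamb3* to *Lama3* can be set against the rest. The young libraries of *Dst* to *Plec* lay close together, between 0.41 and 0.55, and those at 24 months between 0.29 and 0.70.

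How tightly a gene was held between animals differed among the 9. The SD of the log2 values within ages was 0.13 for *Itga6*, 0.14 for *Col17a1* and 0.17 for *Itgb4*. Among 7062 genes averaging 100 or more normalized counts, whose median SD was 0.29, 2.34%, 3.85% and 10.7% had a smaller one. These are the 2 integrin chains and collagen XVII. *Cd151* (0.19) and *Dst* (0.20) followed at 16.1% and 20.1%, and *Lama3* (0.25) at 34.5%. *Plec*, *Col7a1* and *Lamb3*, at 0.29, 0.31 and 0.36, lay at 50.9%, 55.8% and 72%. The genes with fewer reads also have more counting error in this figure.

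What the 9 genes shared from animal to animal was examined on deviations from the mean of each age, which leave out the age effect. In all, 36 pairs were compared over the 20 libraries, with 100000 permutations within ages. *Plec* and *Dst* went together most closely, with Pearson's r = 0.89 (permutation p = 1e-05, the smallest these permutations can give, 0.00036 after adjustment over the 36 pairs). Spearman's rho was 0.83 (permutation p = 0.00021, adjusted p = 0.00756), and r was 0.83 without the 2 libraries farthest from the *Plec* median, young replicate 1 and 12-month replicate 5. Of all pairs of tested genes, many with fewer counts and so more counting error, 0.0197% had an r as high. Within single ages, r was 0.98 in young, 0.94 in 12-month, −0.13 in 18-month and 0.94 in 24-month libraries. Young replicate 1 deviated by 0.50 in *Plec* and 0.49 in *Dst*, and 24-month replicate 5 by −0.50 and −0.31. The 18-month libraries deviated little, between −0.144 and 0.125 in *Plec* and between −0.0887 and 0.0647 in *Dst*, and the order of the libraries differed between the genes.

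No pair other than *Plec* and *Dst* passed on either measure. Of the 36 pairs, 28 had an r above 0 (77.8%, against 49.8% of all pairs of tested genes), with a median of 0.155 against −0.0015. The integrin chains *Itga6* and *Itgb4* had r = 0.44 (permutation p = 0.0789, adjusted p = 0.284; rho = 0.42, permutation p = 0.109). The lowest was *Itgb4* with *Lamb3*, at −0.50 (permutation p = 0.0277, adjusted p = 0.223; rho = −0.51, permutation p = 0.0403).

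**Figure D4:**
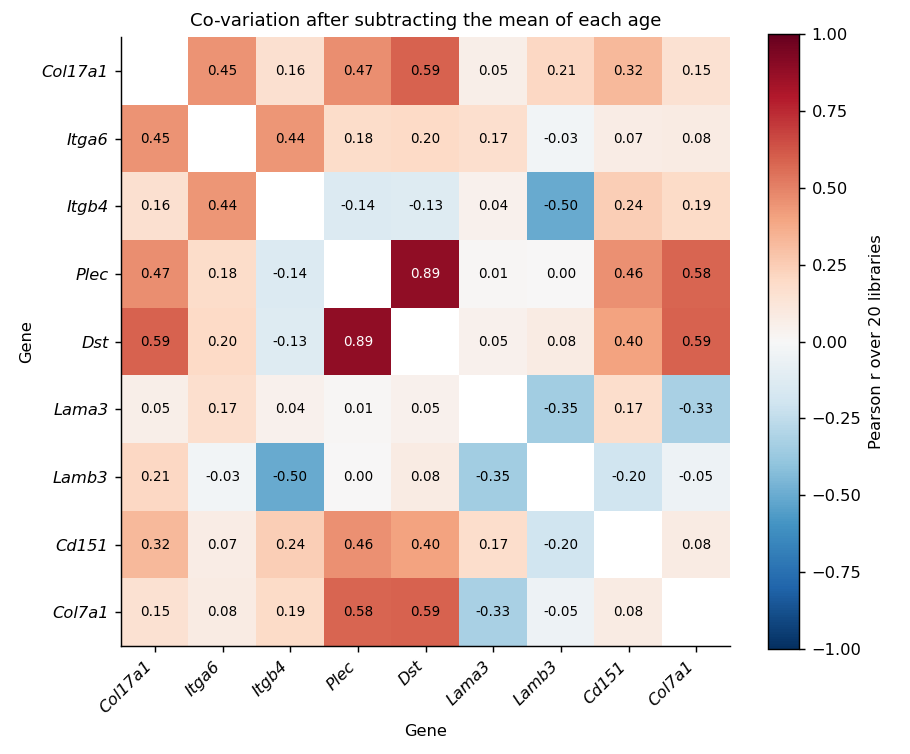
Pearson's r between deviations from the age means for each pair of genes (rows and columns), over 20 libraries, from −1 (blue) to 1 (red). *Plec* with *Dst* (0.89) stands out from the rest of the matrix.

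**Figure D5:**
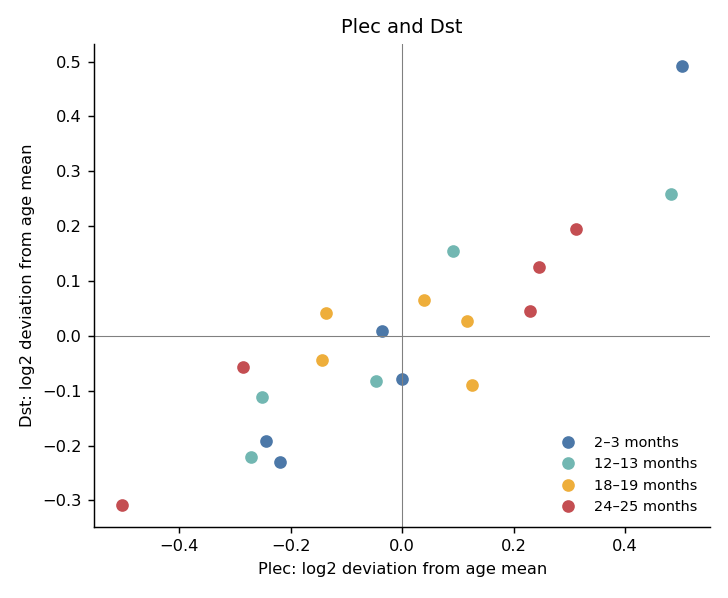
Deviation from the mean of the same age on the log2 scale, for *Dst* against *Plec*. Each point is 1 of 20 libraries, coloured by age. The points run along a diagonal between −0.50 and 0.50 in *Plec*.

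The genes most like the 9 as a whole, by r with their mean standardized deviation over 20 libraries, were *Upf2* (0.92), *Huwe1* (0.89), *Fubp1* (0.88), *Spag9* (0.87) and *Snrnp48* (0.86). Taken singly, *Dst* was most like *Uaca* (0.95), *Plec* most like *Ubr4* (0.93), *Cd151* most like *Ubap2l* (0.85) and *Col7a1* most like *Dvl2* (0.83). Among 11287 genes compared, *Col17a1* was most like *Grn* (0.81), *Itgb4* most like *Brd1* (0.78), *Lama3* most like *Nr6a1* (0.77) and *Lamb3* most like *Fam217b* (0.76). These are the highest of many values and are given as a description. *Plec* and *Dst* have very long transcripts, of up to 15455 and 23279 bases against a median of 3463 for tested genes. Across 10747 genes, the deviations of a library correlated with log2 transcript length at between −0.111 and 0.0899, and over the 20 libraries this library measure went with *Dst* (r = 0.79, permutation p = 0.00178, adjusted p = 0.00923 over 9 genes; rho = 0.71, permutation p = 0.00372) and with *Plec* (r = 0.74, permutation p = 0.00205, adjusted p = 0.00923; rho = 0.64, permutation p = 0.00722). Without the 2 libraries farthest out in that measure, r was 0.73 and 0.64. By its making, the measure rises when genes with long transcripts are high, *Plec* and *Dst* among them. Each gene was taken at its longest transcript, though the *Dst* value also covers shorter forms. The part of this measure in the pairing of *Plec* with *Dst* was not tested.

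Around the complex, 57 further genes of the pathway were taken as 4 lists, and 47 of them were tested. Limma called 0 of 47 at 24 months against young (0.78% of all tested genes), as did voom, and at 12 and 18 months limma called 0 in each list too. Of the basement membrane partners, 14 of 16 were tested, 7 had an unadjusted p-value below 0.05 (9.97% of all tested genes did), and 11 were lower at 24 months, with a median log2 fold change of −0.39. Of the 7, 5 were lower and 2 higher, *Lama5* at 0.65 and *Fras1* at 0.30 on the log2 scale (adjusted p = 0.377 and 0.429, limma), both named after their values were seen. *Col4a1*, a chain of collagen IV, went from 26.2 to 49.3 normalized counts in young libraries to 4.88 to 10.4 at 24 months. These groups did not overlap, as for 2.81% of tested genes, but the adjusted p-value was 0.11 (limma). The authors' own analysis, with DESeq2, names *Col4a1* among its DEGs, so the call differed between the 2 methods. The keratocyte list above fell in the same libraries, and its part in the *Col4a1* values was not tested.

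Among the other matrix receptors, 11 of 14 were tested and 1 was below an unadjusted 0.05. That was *Bcam*, a receptor for another laminin chain, at 291 ± 96.7 in young and 174 ± 34.6 in 24-month libraries (SD, n = 5), a log2 fold change of −0.71 (adjusted p = 0.206, limma). Of the linkers and tetraspanins, 14 of 15 were tested and 3 were below 0.05. *Erbin*, which binds the tail of the β4 chain, had the lowest p-value, with 1857 ± 139 against 1590 ± 117 normalized counts and a log2 fold change of −0.22 (adjusted p = 0.385, limma). Of the proteases and their inhibitors, 8 of 12 were tested and 2 were below 0.05. *Mmp2*, a gelatinase, was lowest in p-value, with 26.5 to 77.6 normalized counts in young libraries and 0 to 12.2 at 24 months (adjusted p = 0.199, limma). These groups did not overlap, as for 2.81% of tested genes, and the 24-month values lay near 0. The authors' own analysis, with DESeq2, lists *Mmp2* as lower with age. They also ran quantitative PCR in further females, which were not sequenced, and in males. With both sexes they report a decrease in genes of the matrix proteoglycan group, and they name *Mmp2* for the males. The part of the keratocyte list in the *Mmp2* values was not tested either.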

How the data were processed

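Per the authors' methods, cutadapt trimmed the reads of the oligo-dT primed libraries, STAR placed them on GRCm38, HTSeq counted them and DESeq2 set the size factors. The values deposited by the authors are log2 of the normalized count plus 1. Multiplied by its size factor, all values came out as whole reads (within 0.001, 100%). Columns with a mean per gene and with the fold changes and p-values of the authors' own comparisons stand beside them and were not used. The other deposited tables repeat libraries of the series for pairs of ages and were left out.

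Age was fitted as 4 groups with limma 3.58.1 (R 4.3.3, package data.table, version 1.17.8), with a variance trend and Benjamini-Hochberg adjustment. The 11288 genes tested averaged 10 or more normalized counts (7.6 to 13.3 reads, by library). Levels are normalized counts with the SD over 5 libraries. The linear trend used the lower age of each group. The fit was tested on simulated data with changed and unchanged genes. Ratios were compared by exact permutation (two-sided, 5 against 5 libraries) (Python 3.11.15, numpy 2.4.6, pandas 2.3.3, scipy 1.17.1), plots matplotlib 3.10.9. Over the 40 pairs of libraries of one age, chi-square per degree of freedom ran from 11.3 to 107.0, so no library was a copy of another of its age. Pairs across ages were not checked in this way. The pairs with young replicate 1 ran from 50.3 to 107.0 and the other young pairs from 15.8 to 39.7, so that library stood apart over many genes. Positions came from RefSeq and transcripts from GENCODE (vM21). Genes whose exons overlap a member on the opposite strand (at *Itgb4*, *Dst*, *Lama3* and *Cd151*) or the same strand (*Parp10* at *Plec*, *Mir711* at *Col7a1*) could share reads with it, since the strand setting of the counting is not given in the sources used here.

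The members and all gene lists were chosen with earlier results of these data known. The text names the 9 members, genes of the pathway lists called against young or, where a list had none, its gene with the lowest p-value at 24 months, and the genes most correlated with the members. One gene planned for naming, its ratio and its correlations are not reported here, and adjustments cover the results that are. *Krt12* and the marker genes were named for the tissue check. Alternatives were quantile normalization, other filters, voom on the recovered reads, the replicate number as a block, fits of 2 groups, other fold thresholds, other pseudocounts and leaving out each library. Quantile normalization and leaving out libraries for the correlation of *Plec* with *Dst* were chosen after seeing the data.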

Additional observations from a re-analysis of the deposited data

Results flagged for a closer look

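In groups of 5 libraries, 52 sets of values (9 genes and 4 ratios at 4 ages) were examined for 1 library far from the other 4, and 4 were found; chance gives about 1 in 20 groups. In young libraries, replicate 1 was far above the others for *Plec* (5769 normalized counts, the next at 4070) and for *Dst* (8057, the next at 5760). Young replicate 5 was far above the others for *Cd151* (910, the next at 811). At 18 months, replicate 2 was far below the others for *Cd151* (753, the next at 958).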

How the results depend on the processing

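The count of members called was 0 in each of the 245 counts made under an alternative, over the 9 comparisons, and the count of pathway genes called at 24 months stayed at 0. Of 1251 member fold changes under an alternative, 1214 kept their direction, 0 passed the thresholds and 37 changed sign, the farthest from 0 being *Col7a1* for all aged against young (−0.147) and *Lamb3* at 12 months (−0.096). Under quantile normalization, *Col17a1* at 12 months was −0.058 and *Itgb4* at 24 months 0.012. The other sign changes came from leaving out 1 library. At 12 months the ranges of log2 fold changes were −0.0311 to 0.0915 for *Col17a1*, −0.123 to 0.123 for *Plec*, −0.0969 to 0.0897 for *Lama3*, −0.223 to 0.0291 for *Lamb3* and −0.129 to 0.157 for *Col7a1*. *Lama3* at 18 months ran from −0.159 to 0.0267. At 24 months *Itgb4* ran from −0.0682 to 0.0544 and *Lama3* from −0.0239 to 0.119. For all aged against young, *Lama3* ran from −0.0906 to 0.0288 and *Col7a1* from −0.25 to 0.0364. For 24 against 12 months, *Itga6* ran from −0.0129 to 0.101, *Lama3* from −0.0329 to 0.154 and *Cd151* from −0.0465 to 0.109. The *Dst* to *Plec* difference ran from −0.0787 to 0.0242, and no ratio passed with another pseudocount or without 1 library. The correlation of *Plec* with *Dst* ran from 0.86 to 0.92 without 1 library and was 0.83 under quantile normalization.

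Libraries with the same number were not paired: over 30 same-numbered pairs the correlation of deviations ran from −0.303 to 0.159, with 3 above 0.1. With the replicate number as a block, 85 genes were called at 24 months in place of 88, and 0 members. Exact sign-flip tests of the 4 ratios with that pairing gave adjusted p-values of 0.25, 0.25, 0.667 and 0.812, but 5 pairs allow no p below 0.0625, so these tests could not pass. At 12 months, 38 genes were called with voom in place of 60, and at 24 against 12 months 11 with the block in place of 22. *Lamb3* had 69 to 200 reads per library and an interval at 24 months that reached 0.522-fold, and counting error was not separated there from the spread between animals. The cause of the sign changes was not tested.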
